A study of Mus musculus with 2 samples.

Results

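The receptor genes of the interleukin 6 and interleukin 4 families were followed across the vessel types of the mouse lung. They are 8 of the 32285 genes listed in both libraries, chosen by symbol: Osmr, Il6st, Il6ra, Lifr, Il4ra, Il13ra1, Il2rg and Il10rb. All 8 symbols occurred once, and the genes were chosen with earlier results of these data known. The samples were 2 single-cell RNA sequencing libraries of lung cells from C57BL/6 wild-type mice, 1 library per group. Control mice had received PBS through the tail vein, and the B16-F10 6 h mice had received 400000 B16-F10 cells in 100 µl of PBS. The B16-F10 line was derived from a skin melanoma of the mouse, and the injected cells were stained with a green tracker. Lungs of both groups were taken after 6 h. Per the labels, 2 mice were used per treatment, while the methods of the study give a different number pooled. Sorted cells were positive for Pecam1 and negative for Ptprc, so endothelial cells (ECs) were taken and leukocytes left out, and the stained melanoma cells were collected as well. Because mice were pooled, each group holds a single measurement. No test between groups could be made, and every interval below is a 95% interval that covers counting error only.

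These receptors work as pairs of chains in the cell membrane. In the interleukin 6 family, Il6st encodes gp130, the chain that transmits the signal, and it pairs with Osmr for oncostatin M, with Lifr for leukemia inhibitory factor, and with Il6ra for interleukin 6. The chains carry Janus kinases that phosphorylate STAT3, and STAT3 then activates genes such as Socs3, whose product blocks the receptor. Endothelial cells are known to respond to interleukin 6 largely through soluble Il6ra shed by other cells. In the interleukin 4 family, Il4ra pairs with Il2rg, the common gamma chain, or with Il13ra1, and acts mainly through STAT6; it is known for inducing Vcam1 and Selp on endothelium. Il10rb is the shared second chain of the receptors for interleukin 10, interleukin 22 and type III interferons.

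The 2 libraries held 85794655 (control) and 104978816 (B16-F10) unique molecular identifiers (UMIs, each marking 1 captured RNA molecule). After filtering, 7830 and 7767 cells remained, of which 7106 and 6345 were ECs. Classes were called X-like from marker genes: general capillary (gCap, 4809 and 4452 cells), aerocyte capillary (aCap, 1446 and 968), artery (346 and 238), vein (263 and 262) and lymphatic EC (LEC, 58 and 51). Median depth was 7290 and 8467.5 UMIs per cell in gCap-like ECs. Their 8 endothelial markers, Pecam1 and Cdh5 among them, summed to 12628 and 11314 CPM, and none was at 0. Levels are UMIs per 1000000 UMIs summed over a class (CPM), and a log2 ratio compares the B16-F10 with the control library, positive where B16-F10 is higher. Such 3' counts are compared between cells for 1 gene, not between genes. The gCap-like class held 7 clusters in unequal proportions: cluster 7, led by Lalba, Adamts9 and Tmem252, had 63 control and 932 B16-F10 cells, cluster 8 had 684 and 118, and cluster 2 had 1083 and 423. All aCap-like cells of the control library lay in cluster 0 (911 cells) and cluster 9 (535 cells), against 904 and 64 cells in the B16-F10 library. Free RNA, estimated from epithelial genes, made up between 1.10% (artery-like ECs, control) and 2.20% (artery-like ECs, B16-F10) of the UMIs of a vessel class.

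In gCap-like ECs, 6 of the 8 genes differed between libraries beyond counting error. The share of all genes beyond counting error was not computed, so this count is no result about the receptors in particular. Osmr, Il4ra, Il13ra1 and Il2rg were at least 1.5-fold higher 6 h after B16-F10 injection, Il6st was higher by less than that, and Lifr was lower. Il10rb and Il6ra stayed within counting error. The 4 members higher by at least 1.5-fold compare with a background of 7.4% of the 13228 genes that had at least 50 UMIs over both sums. None of the 8 was 1.5-fold lower, against 9.25% of all genes. At 2-fold, Osmr and Il4ra were higher, against 2.93% of genes. The median log2 ratio of the 8 was 0.56, and that of all genes was -0.04. Osmr and Il4ra are also on the study's own marker list of reactive capillaries, which was drawn up partly from these libraries, so their direction is not independent evidence. All 8 receptors were chosen with earlier results of these data known. Their counts against the background, here and in the other classes, are therefore not independent evidence either.

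**Figure D1:**
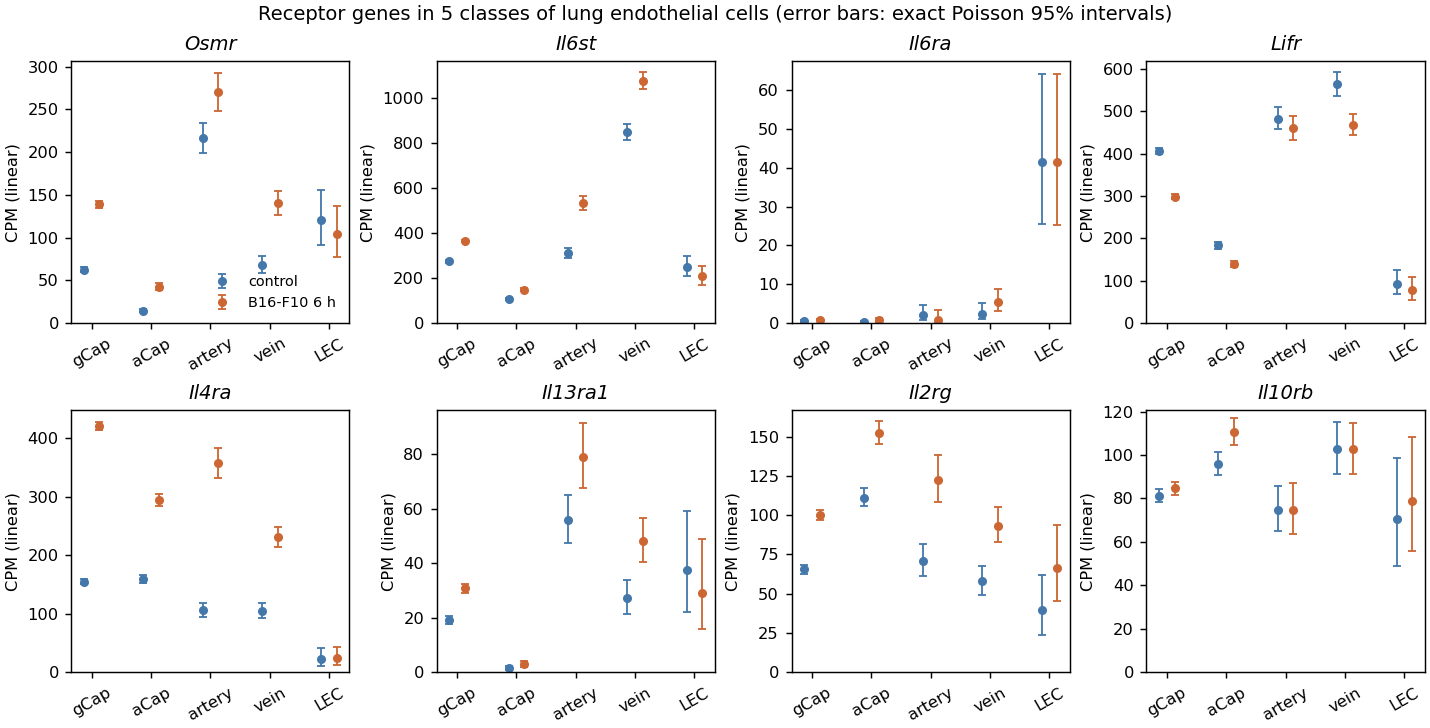
CPM (y axis, linear) of each receptor gene in the 5 classes of ECs (x axis) in the control library (blue) and the B16-F10 6 h library (orange), with exact Poisson 95% intervals. Il4ra in gCap-like ECs lies at 154 CPM in the control and 420 CPM in the B16-F10 library, and Lifr in the same cells at 407 and 299 CPM.

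Of the interleukin 6 family, Osmr (chromosome 15, 6813577 to 6874969, minus strand, GRCm38) pairs with Il6st for oncostatin M. Among the members of this family, it had the largest ratio in gCap-like ECs. From 2252 UMIs in the control and 5413 in the B16-F10 library, its level was 62.7 CPM (interval 60.1 to 65.3) and 139 CPM (135 to 143). This gave a log2 ratio of 1.15 (1.08 to 1.22), and 300 of 13228 genes had a larger one. Osmr was thus higher in the B16-F10 library by more than counting error. In aCap-like ECs it was scarcer, at 14.7 CPM in the control and 42.7 CPM in the B16-F10 library, with a log2 ratio of 1.53 (1.29 to 1.78). In vein-like ECs it was at 68.5 and 140 CPM (1.03, 0.78 to 1.29). Artery-like ECs had the most Osmr in both libraries, 216 and 270 CPM, and the smaller log2 ratio of 0.32 (0.16 to 0.49), whose interval lay below that of gCap-like ECs. In LEC-like ECs, 58 and 50 UMIs gave 121 and 104 CPM, a difference within counting error. The order of control levels was artery, LEC, vein, gCap and aCap, where vein and gCap could not be told apart. In the B16-F10 library, the levels of vein-like, gCap-like and LEC-like ECs stood between artery and aCap, and neighbours among these 3 had overlapping intervals.

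Il6st (chromosome 13, 112464070 to 112510086, plus strand), the signal-transmitting chain, was highest in vein-like ECs. There it reached 851 CPM (817 to 886) in the control and 1078 CPM (1041 to 1116) in the B16-F10 library, a log2 ratio of 0.34 (0.26 to 0.42). In gCap-like ECs the levels were 275 and 366 CPM (0.41, 0.37 to 0.45), and in aCap-like ECs 108 and 149 CPM (0.47, 0.36 to 0.57). Il6st was therefore higher in the B16-F10 library in each of these classes, but by less than 1.5-fold. Artery-like ECs differed more, from 312 to 534 CPM, with a log2 ratio of 0.77 (0.65 to 0.90) that lay above the gCap-like interval. LEC-like ECs had 121 and 100 UMIs, 252 and 208 CPM, within counting error.

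Lifr (chromosome 15, 7090614 to 7197489, plus strand), the chain for leukemia inhibitory factor, went the other way. Its gCap-like level was 407 CPM (400 to 413) in the control and 299 CPM (293 to 304) in the B16-F10 library, with a log2 ratio of -0.45 (-0.48 to -0.41). In aCap-like ECs the levels were 184 and 140 CPM (-0.39, -0.48 to -0.30), and in vein-like ECs 563 and 469 CPM (-0.27, -0.37 to -0.16). Lifr was lower beyond counting error in these 3 classes. The artery-like values, 483 and 460 CPM (-0.07, -0.19 to 0.05), and the LEC-like values, 93.6 and 79.0 CPM, did not differ beyond counting error. In the control, levels followed the order vein, artery, gCap, aCap, LEC, each apart from its neighbour. In the B16-F10 library, vein and artery overlapped.

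Il6ra (chromosome 3, 89864059 to 89913196, minus strand), the interleukin 6 binding chain, was close to absent from blood vessel ECs. The gCap-like sums held 20 UMIs in the control and 31 in the B16-F10 library, 0.557 and 0.795 CPM, which is within counting error. The other blood vessel classes held 2 to 16 UMIs per library. In the LEC-like class, 20 UMIs in either library gave 41.6 CPM (25.4 to 64.2). That is far above the blood vessel classes, whose highest value was 5.37 CPM (3.07 to 8.72) in vein-like ECs after B16-F10 injection. Beyond the ECs, 19 neutrophil-like cells of the B16-F10 library held 25 UMIs of Il6ra (184 CPM), 26 T/NK-like cells held 23 (99.0 CPM), and 37 cells without a class held 141 (253 CPM).

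**Figure D2:**
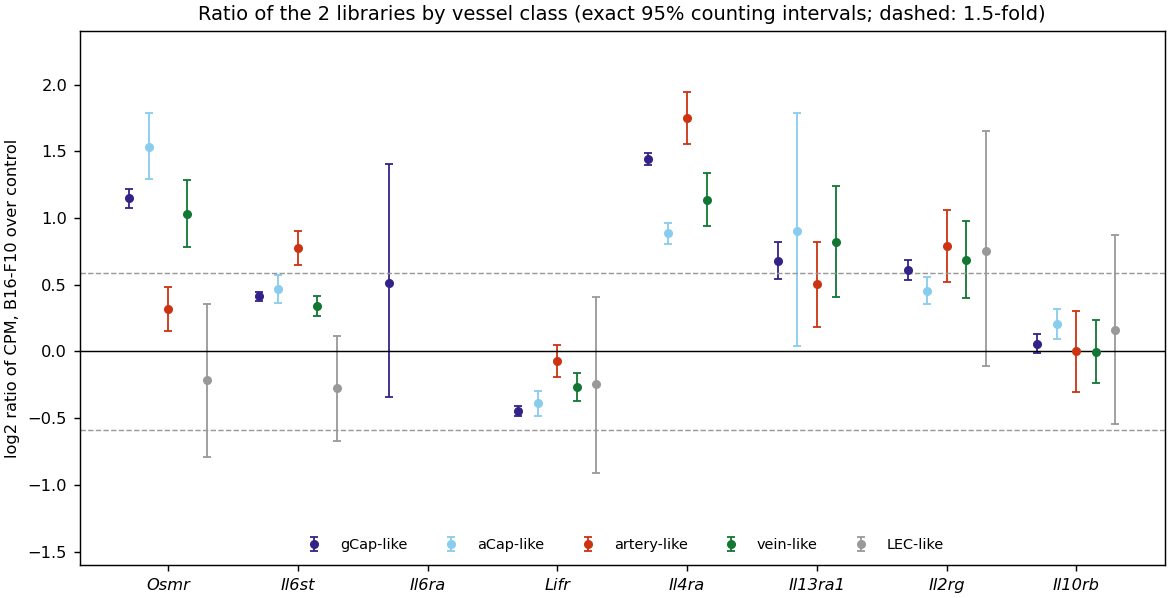
Log2 ratio of CPM, B16-F10 over control (y axis), of each receptor gene (x axis) in the 5 vessel classes (colours), with exact 95% counting intervals; dashed lines mark 1.5-fold in either direction, and a class is drawn where a gene had at least 50 UMIs. Osmr, Il6st, Il4ra, Il13ra1 and Il2rg lie above 0 in the 4 blood vessel classes, and Lifr lies at or below 0 in each class.

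In the interleukin 4 family, Il4ra (chromosome 7, 125552120 to 125579474, plus strand), which binds interleukin 4, had the largest ratio in gCap-like ECs. It was at 154 CPM (150 to 159) from 5550 UMIs in the control and at 420 CPM (414 to 427) from 16387 UMIs in the B16-F10 library. This log2 ratio of 1.44 (1.40 to 1.49) was exceeded by 176 of 13228 genes. The intervals did not overlap, and the difference was 2.72-fold. Artery-like ECs had 106 and 357 CPM with a log2 ratio of 1.75 (1.56 to 1.95), above the gCap-like interval. In vein-like ECs the levels were 105 and 230 CPM (1.14, 0.94 to 1.34), and in aCap-like ECs 159 and 294 CPM (0.89, 0.81 to 0.97). Both of these ratios lay below the gCap-like interval. The control levels of aCap-like and gCap-like ECs overlapped, whereas in the B16-F10 library gCap-like ECs stood above artery-like, aCap-like and vein-like ECs in that order. LEC-like ECs had 11 and 12 UMIs, 22.9 and 24.9 CPM.

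Il13ra1 (chromosome X, 36112110 to 36171259, plus strand), the second chain of the interleukin 13 receptor, was sparse in capillaries. In gCap-like ECs 689 and 1199 UMIs gave 19.2 CPM (17.8 to 20.7) and 30.7 CPM (29.0 to 32.5), that is, a log2 ratio of 0.68 (0.54 to 0.82). Artery-like ECs had the highest value, 55.7 and 79.0 CPM (0.50, 0.18 to 0.82), although in the control it overlapped that of LEC-like ECs. In vein-like ECs it was at 27.2 and 48.0 CPM (0.82, 0.41 to 1.24). It was higher in the B16-F10 library in all 3, and neither of the latter intervals was apart from that of gCap-like ECs. In aCap-like ECs only 20 and 31 UMIs were found, 1.53 and 2.85 CPM (0.90, 0.04 to 1.79), a ratio that reversed when classes were set cell by cell. LEC-like ECs had 18 and 14 UMIs. Among leukocytes, the 19 neutrophil-like cells of the B16-F10 library held 52 UMIs (383 CPM).

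Il2rg (chromosome X, 101264378 to 101268255, minus strand), the common gamma chain of several interleukin receptors, is best known from lymphocytes. It was measured in each vessel class. In gCap-like ECs it was at 65.4 CPM (62.8 to 68.1) in the control and 100.1 CPM (97.0 to 103) in the B16-F10 library, with a log2 ratio of 0.61 (0.54 to 0.69). The aCap-like class had the most, 111 and 152 CPM (0.46, 0.35 to 0.56). The other ratios were 0.79 (0.52 to 1.06) in artery-like ECs, from 71.0 to 123 CPM, and 0.69 (0.40 to 0.97) in vein-like ECs, from 57.9 to 93.2 CPM. All 4 blood vessel classes had more Il2rg in the B16-F10 library, and their ratios overlapped. LEC-like ECs had 19 and 32 UMIs, with a log2 ratio of 0.75 that lay within counting error (-0.11 to 1.65). In B-like and T/NK-like cells of the B16-F10 library, Il2rg was at 266 and 280 CPM.

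Leukocyte markers moved with these differences in gCap-like ECs. The summed level of 7 leukocyte genes was 3.48 CPM in the control and 8.82 CPM in the B16-F10 library, and none of the 7 was at 0 in either. All 7 were higher beyond counting error, among them Ptprc, with 12 and 49 UMIs. In the gCap-like cells without any UMI of these 7 genes (4692 and 4148 cells), the log2 ratio of Il2rg was 0.60 and that of Il4ra was 1.45, against 0.61 and 1.44 over all the cells. Melanoma markers had 1.36 and 36.6 CPM over 8 genes (3 at 0 in the control, none in the B16-F10 library), mural markers 25.0 and 50.6 CPM over 8 genes (none at 0), and macrophage/monocyte markers 16.1 and 31.1 CPM over 8 genes (1 at 0 in the control, none in the B16-F10 library). Once cells with a UMI of the leukocyte, myeloid, mural, platelet or melanoma lists were left out, 3291 and 1672 cells remained, with log2 ratios of 1.20 for Osmr, 1.46 for Il4ra and -0.46 for Lifr. Both of these selections of cells were made after the data had been seen. In the 77 melanoma-like cells the receptors were low, with 15 UMIs of Il6st (18.2 CPM) and 19 of Il10rb (23.0 CPM).

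Il10rb (chromosome 16, 91406164 to 91425834, plus strand) varied least between libraries. Its levels were 81.2 CPM (78.3 to 84.2) and 84.6 CPM (81.7 to 87.5) in gCap-like ECs, a log2 ratio of 0.06 (-0.01 to 0.13). Only aCap-like ECs had a difference beyond counting error, 96.1 and 111 CPM (0.21, 0.09 to 0.32). Artery-like ECs had 74.9 CPM in both libraries, and vein-like ECs had 103 CPM in both.

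Counted by class, 3 of the 7 members measured in aCap-like ECs were at least 1.5-fold higher (Osmr, Il4ra and Il13ra1), against 6.43% of genes. In artery-like ECs these were 3 of 7 (Il6st, Il4ra and Il2rg), against 7.72% of genes, and in vein-like ECs 4 of 7 (Osmr, Il4ra, Il13ra1 and Il2rg), against 5.22%. Under alternative settings the log2 ratio of Il2rg ran from 0.54 to 1.12 in artery-like ECs and from 0.33 to 0.77 in vein-like ECs. In both classes its lowest value was under 1.5-fold. In LEC-like ECs 1 of 5 was past that fold (Il2rg), against 8.4%. No member was 1.5-fold lower in any of these classes, where 8.07% (aCap-like), 7.26% (artery-like), 5.33% (vein-like) and 8.42% (LEC-like) of genes were. The LEC-like class, with 58 and 51 cells, showed no member beyond counting error, although its interval for Osmr, -0.79 to 0.36, did not reach the gCap-like ratio of 1.15.

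The members did not differ equally over the gCap-like clusters. Il4ra was higher beyond counting error in 7 of 7 clusters, with log2 ratios from 0.84 to 1.23, all below the 1.44 of the whole class. Lifr was lower beyond counting error in 7 of 7, from -0.70 to -0.25. Osmr was higher in 7 and beyond counting error in 6, from 0.22 to 1.27. In cluster 7 the levels stood apart from the whole class in the control cells too. There, 63 control cells had 209 CPM of Osmr and 402 CPM of Il4ra, and 932 B16-F10 cells had 244 and 838 CPM. Lifr was at 265 and 163 CPM in these cells.

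Without cluster 7, a comparison added after the data had been seen, the gCap-like log2 ratios were 0.84 for Osmr, 0.99 for Il4ra, 0.45 for Il2rg, 0.38 for Il13ra1, 0.30 for Il6st and -0.27 for Lifr. The signs stayed, and only Osmr and Il4ra of the 4 remained at least 1.5-fold higher, against 5.55% of all genes in these cells. The mean over the 7 clusters, weighting each equally, was 0.85 for Osmr and 1.09 for Il4ra.

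**Figure D3:**
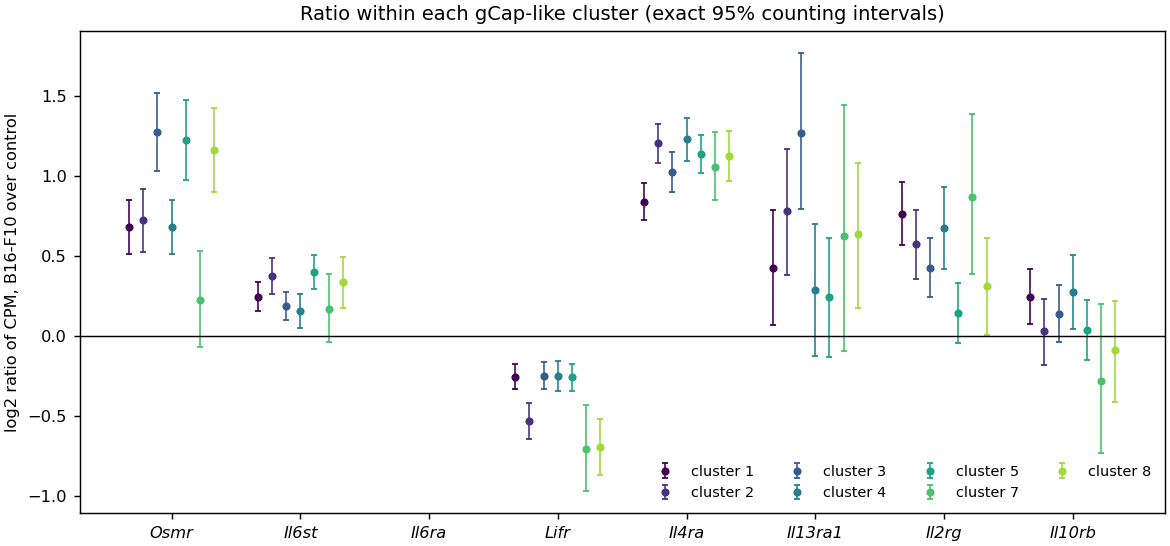
Log2 ratio of CPM, B16-F10 over control (y axis), of each receptor gene (x axis) within the 7 gCap-like clusters (colours), with exact 95% counting intervals; Il6ra had too few UMIs in each cluster. Il4ra lies above 0 and Lifr below 0 in each of the 7 clusters, while the Osmr ratio runs from 0.22 in cluster 7 to 1.27 in cluster 3.

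To ask whether more single cells held both chains of a receptor, every gCap-like cell was thinned to 2000 UMIs, which left 4746 and 4424 cells and dropped 63 and 28 that were too shallow. Il4ra was found in 25.4% (24.2 to 26.7) of control cells and 49.6% (48.2 to 51.1) of B16-F10 cells. Osmr was found in 11.1% (10.3 to 12.1) and 21.3% (20.1 to 22.6), and Lifr in 52.6% (51.2 to 54.0) and 40.9% (39.4 to 42.4). The log2 ratio of Il2rg between the thinned sums was 0.55, which is under 1.5-fold. The shares thus followed the direction of the summed levels at equal depth. Il6st was in 40.3% and 47.3% of cells, Il2rg in 12.3% and 17.2%, Il13ra1 in 3.60% and 5.85%, Il10rb in 15.0% and 14.9%, and Il6ra in 0.0632% and 0.181%. In LEC-like cells, where the summed level of Il4ra was lowest, 6.90% and 5.88% held a UMI of it at the same depth.

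Both chains of the oncostatin M receptor, Osmr and Il6st, were found in 4.85% (4.25 to 5.50) of control and 10.9% (10.0 to 11.9) of B16-F10 gCap-like cells. The pair for interleukin 4, Il4ra with Il2rg, was in 3.29% and 8.82%, and Il4ra with Il13ra1 in 0.822% (0.585 to 1.12) and 3.19% (2.69 to 3.75). These 3 pairs were more frequent in the B16-F10 library, at shares close to the product of the shares of the single genes (4.50% and 10.1%, 3.11% and 8.55%, and 0.915% and 2.91%). Lifr with Il6st was less frequent, 21.5% (20.3 to 22.7) and 18.2% (17.1 to 19.4). With every cell thinned to 4000 UMIs the difference was -1.90 percentage points (-4.01 to 0.22). Without thinning the shares were 67.9% and 69.8%, but there the libraries differed in median depth (7290 and 8467.5 UMIs). Il6ra with Il6st was seen at this thinned depth in 0 of 4746 control cells, which allows up to 0.0777% at 2000 UMIs per cell, and in the B16-F10 library in 0.136% (0.0498 to 0.295). Without thinning the pair was in 0.312% (0.175 to 0.514) and 0.629% (0.418 to 0.908). The intervals of the 2 shares overlapped at both depths. Those of their difference lay above 0, at 0.0264 to 0.296 percentage points thinned and 0.0373 to 0.621 without thinning. These values rest on 0 and 6 cells thinned, and on 15 and 28 cells without thinning. Without thinning, the pair Osmr and Il6st was in 23.4% and 48.6% of cells, Il4ra with Il2rg in 22.5% and 43.8%, and Il4ra with Il13ra1 in 7.30% and 17.9%.

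**Figure D4:**
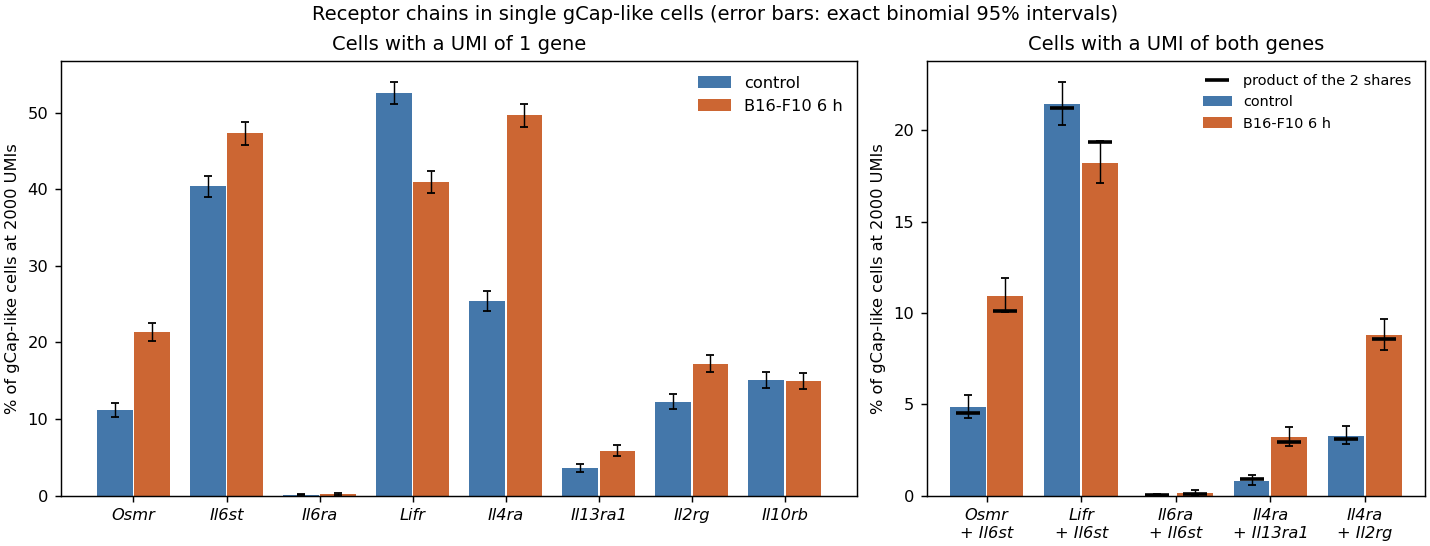
Percent of gCap-like cells (y axis) with at least 1 UMI of a receptor gene (left) or of both genes of a pair (right) after thinning to 2000 UMIs per cell, in the control (blue) and B16-F10 6 h (orange) libraries, with exact binomial 95% intervals; black dashes give the product of the 2 single shares. The Osmr and Il6st pair stands at 4.85% and 10.9%, near its products of 4.50% and 10.1%.

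Cells were also ordered by the summed UMIs of 18 known STAT3 target genes at 2000 UMIs per cell. The median was 2 UMIs in control and 8 UMIs in B16-F10 gCap-like cells. In the B16-F10 library, Il4ra was found in 37.2% (34.5 to 39.9) of the 1232 cells at or below the lower quartile (lower group) and in 62.6% (59.7 to 65.4) of the 1138 cells at or above the upper quartile (upper group). Osmr went from 14.8% (12.8 to 16.9) to 28.5% (25.9 to 31.2), Il6st from 41.0% to 54.1%, Il13ra1 from 3.81% to 8.35% and Il2rg from 15.2% to 20.8%. Lifr was found less often in the upper group, 32.3% (29.6 to 35.1) against 46.9% (44.1 to 49.7). These 6 genes differed between cells of 1 library in the direction in which they differed between libraries. Of the 18 score genes, 17 were themselves at least 1.5-fold higher in the B16-F10 library, against 7.4% of all genes. The list was also written with earlier results of these data known, so this likeness of direction is not independent evidence. Among the gCap-like clusters of the B16-F10 library, cluster 7 (932 cells) had the lowest Lifr (163 CPM). It also had the highest Il4ra (838 CPM), Osmr (244 CPM), Il6st, Il13ra1 and Il2rg. Which clusters the lower and upper groups held was not counted, and a part of cluster 7 in these directions was not tested. Il10rb (17.0% and 14.4%) and the endothelial gene Cdh5 (95.3% and 95.7%) had overlapping intervals. In the control library, where scores were low, both groups had overlapping intervals for each of the 8 genes, such as 24.5% and 27.0% for Il4ra and 12.6% and 10.9% for Osmr. Tied scores made the groups unequal in size, and cells of 1 library are not replicates.

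**Figure D5:**
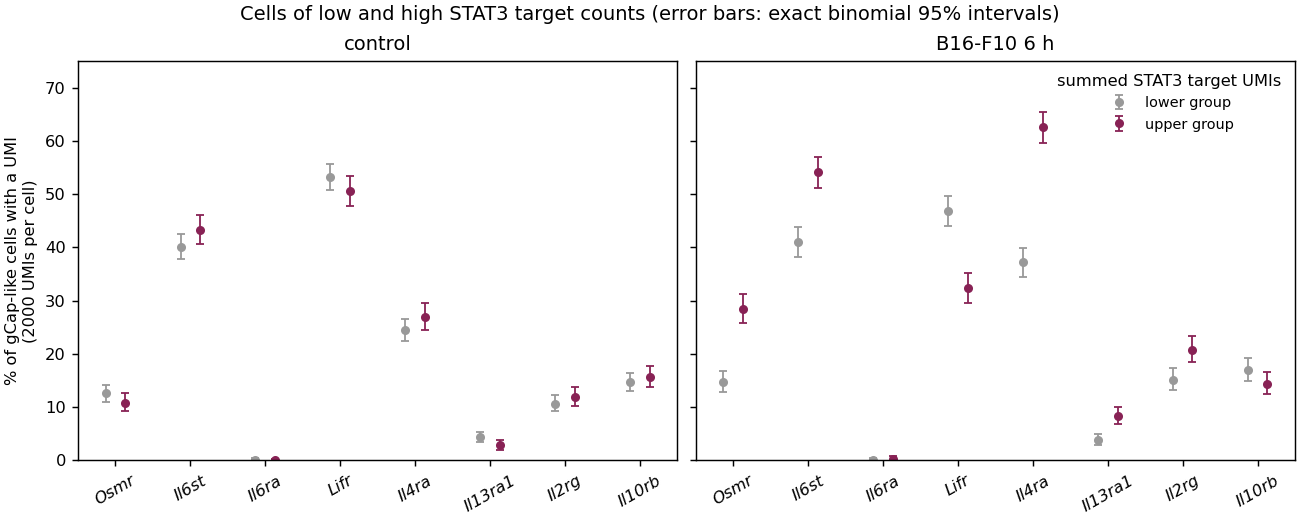
Percent of gCap-like cells with at least 1 UMI of each receptor gene (y axis, 2000 UMIs per cell) in the cells at or below the lower (grey) and at or above the upper (purple) quartile of summed STAT3 target UMIs, in the control (left) and B16-F10 6 h (right) libraries, with exact binomial 95% intervals. In the B16-F10 library Il4ra is at 37.2% and 62.6%, and Lifr at 46.9% and 32.3%, while the control pairs overlap.

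The genes downstream of these receptors were counted in gCap-like ECs from lists written with earlier results of these data known. Of the 18 STAT3 target genes, 17 were at least 1.5-fold higher, against 7.4% of all genes (median log2 ratio 2.15), 4 of them shared with the study's reactive capillary list. Socs3, the feedback inhibitor of gp130, was at 65.9 and 487 CPM (log2 ratio 2.89), Bcl3, an NF-kB cofactor, at 17.9 and 116 CPM (2.70), and Myc at 18 and 481 UMIs (4.62, 3.95 to 5.39). Of the 8 STAT6 target genes, 4 reached 50 UMIs and 3 were higher. Vcam1 was at 2.95 and 20.1 CPM (2.77), Chil3 at 4.42 and 8.28 CPM (0.90), and Selp, which encodes P-selectin, at 8 and 445 UMIs (5.68, 4.69 to 6.90). Vcam1 and Selp also respond to other pathways, as do most genes of both lists.

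Between receptor and target, 3 of 9 Janus kinase and STAT genes were at least 1.5-fold higher and none was lower. Against these counts and those of the next lists, the background was 7.4% of all genes higher and 9.25% lower. The 3 higher genes were Jak3, the kinase that binds Il2rg, at 12.2 and 22.3 CPM (log2 ratio 0.87), Stat3 at 168 and 257 CPM (0.62) and Jak2 at 58.2 and 88.6 CPM (0.61). Of 8 adaptor genes, 1 was higher, Irs2, with 20 and 36 UMIs, within counting error. The 2 adaptors that were lower were Irs1, a substrate of the interleukin 4 receptor, at 14.7 and 4.41 CPM (-1.73, -1.99 to -1.48), and Gab1, which links gp130 to the MAP kinase pathway, at 74.7 and 46.9 CPM (-0.67). Among 7 feedback inhibitors, of which 6 were measured, Socs3 and Socs1 (3.95 and 8.13 CPM, 1.04) were higher, and Pias3, an inhibitor of STAT3, was lower at 17.9 and 10.4 CPM (-0.78). The sheddases Adam10, at 143 and 113 CPM (-0.34), and Adam17, at 62.2 and 62.8 CPM (0.01), did not reach 1.5-fold. The study's list of 50 reactive capillary markers had 42 that were higher, and its list of 50 interferon markers had 6 higher and 2 lower, shares to be read against the same 7.4% and 9.25%.

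Ligands of these receptors were scarce in gCap-like ECs. Of 10 ligands of the interleukin 6 family, 2 reached 50 UMIs and both were lower: Il27, at 100 and 32 UMIs (log2 ratio -1.76, -2.38 to -1.17), and Clcf1, at 494 and 351 UMIs (-0.61, -0.81 to -0.41). Other ligands of the family were located among the cells after their values had been seen. Osm, which encodes oncostatin M, had 10 UMIs over all cells of the control and 120 over those of the B16-F10 library. Of these, 4 and 82 lay in the 3 and 19 neutrophil-like cells. Cells without a class, 6 and 37 in number, held 3 and 24, and ECs held 2 and 11. The libraries thus also differed in how many cells outside the ECs were kept. Lif had 0 and 55 UMIs, of which 42 lay in ECs without a vessel class, and Il6 had 0 and 9. Most Osm RNA was thus outside the ECs and most Lif RNA was within them, in counts too small for a level per cell.

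For the interleukin 4 side, Il4 itself had 48 and 15 UMIs in gCap-like ECs (-1.80, -2.74 to -0.93), Il2 had 87 and 68 (-0.47, -0.95 to 0.00), and Il15 stood at 19.9 and 14.7 CPM (-0.44). No UMI of Il13, Il9 or Il21 was found in any cell kept. Of the chains listed as partners of Il2rg, Il15ra was at 33.0 and 29.8 CPM (-0.14), while Il2ra, Il2rb, Il7r, Il9r and Il21r had 0 to 12 UMIs per library over all ECs. Crlf2, on the same list although it pairs with Il7r and not Il2rg in the receptor for thymic stromal lymphopoietin, was at 37.5 and 53.9 CPM (0.53). The partners of Il10rb were as scarce as the other chains, with 0 and 2 UMIs of Il10ra in ECs and 4 and 5 of Ifnlr1. None of the 4 ligand genes and none of the 4 partner genes of Il10rb reached 50 UMIs in gCap-like ECs.

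Among the other receptors that use gp130 or resemble it, Il27ra was higher at 18 and 51 UMIs (1.38, 0.58 to 2.25). Lepr, the leptin receptor, was at 82.4 and 76.2 CPM (-0.11), and Il31ra at 32.5 and 27.2 CPM (-0.26). The Il31ra gene lies on the opposite strand, and 9811 bases separate its nearer end, the 3′ end, from the end of Il6st.

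ECs outside the vessel classes formed a cluster led by Sox9 and Csf2 and another led by Fabp4 and Rbp7. The former had 12 control and 344 B16-F10 cells, and in the B16-F10 cells Il2rg was at 258 CPM (241 to 276), above each vessel class of that library, and Lifr at 28.8 CPM (23.4 to 35.1), below each of them. Il4ra was at 290 CPM and Osmr at 78.1 CPM in the same cells. The cluster led by Fabp4 had 172 control and 30 B16-F10 cells, with 118 and 299 CPM of Osmr and 36 and 2 UMIs of Il2rg. Clusters that carried endothelial markers together with those of red cells (293 control and 760 B16-F10 cells), platelets (234 and 246), mural cells (147 and 171) or epithelium (25 and 48) were kept out of the vessel classes. Il4ra was higher in the B16-F10 cells of each, at 112 and 272 CPM, 166 and 383 CPM, 127 and 290 CPM, and 44.5 and 134 CPM in that order. Lifr was lower in the first 3 (228 and 169, 331 and 208, and 328 and 208 CPM), and had 32 and 70 UMIs (88.9 and 136 CPM) in the last. The cells called mural pooled cluster 15 (84 control and 86 B16-F10 cells) and cluster 16 (63 and 85). Cluster 16 was led by Dcn, Clec3b and Col3a1, of which Dcn and Col3a1 are on the list of fibroblast markers.

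Patterns were compared over the 10 sums of 5 vessel classes and 2 libraries. Osmr was most like Il13ra1 among the members (Pearson r 0.94 of log2(CPM + 1)), both being highest in arteries, and Il4ra was most like Il2rg (0.80). Over the 10367 other genes with at least 500 UMIs, those most like the members were Smc1a, Zyx and Cmip for Osmr (0.97 to 0.93), Gxylt2, Csrp2 and Rflnb for Il6st (0.98 to 0.95), and Rundc3b, Jam2 and Cyp2j9 for Lifr (0.99 to 0.98). For Il4ra they were H2-K1, Mrpl57 and Rrp9 (0.98 to 0.97), for Il13ra1 Cmip and Foxo1 (0.98 and 0.97), and for Il2rg Ly6e, Nfkbib and Nav1 (0.97 to 0.95). For Il6ra, Cp and Tgfbr2 were among the most alike (0.98 and 0.97), and Il10rb was most like A330009N23Rik, Micos10 and Gosr2 (0.96 to 0.94). These correlations describe 10 points that share libraries and depth and carry no test.

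The gene models and promoters were examined because several members moved together. Antisense genes overlap exons of Il6ra (Gm42809) and Il4ra (Gm44876), and they had 0 and 0 UMIs and 1 and 2 UMIs in gCap-like ECs. On the same strand, the protein-coding gene models Gm20489 and Gm21970 overlap exons of Il2rg and Il10rb. Neither is among the genes listed in the libraries, so their reads cannot be told from those of the 2 members. The 250 bases before each RefSeq start (GRCm38.p6) were read for 7 members (not Il10rb), 8 windows in all since Lifr has 2. They were searched on both strands for the STAT motif TTCNNNGAA, held by 7.02% of 32851 promoters of this length, and the wider TTCNNNNGAA that STAT6 also binds, held by 5.85%. The interferon motif GAAANNGAAA, held by 2.98%, and the short ETS core GGAA, held by 93.4% and able to overlap the other motifs, were added after the first 2 gave no match. None of the first 3 motifs was found in the 8 windows. All 250 bases of the Osmr window lay in annotated exons of Osmr itself, and 151 bases of the Il4ra window in exons of Il4ra. The Il6ra window lay wholly in an exon of Gm42809. For these genes the search covered largely transcribed sequence, and sites further upstream were not searched. The GGAA core was found in 6 of 8, both Lifr windows being without it. Windows of Il6st, Il13ra1 and Il2rg, which were higher in B16-F10 and hold no annotated exon, are shown with GGAA and its reverse complement TTCC in capitals. They lie at chr13:112463820-112464069 (plus strand), chrX:36111858-36112107 (plus strand) and chrX:101268256-101268505 (minus strand), have 7, 4 and 4 matches, and read from 5′ to 3′:
Il6st: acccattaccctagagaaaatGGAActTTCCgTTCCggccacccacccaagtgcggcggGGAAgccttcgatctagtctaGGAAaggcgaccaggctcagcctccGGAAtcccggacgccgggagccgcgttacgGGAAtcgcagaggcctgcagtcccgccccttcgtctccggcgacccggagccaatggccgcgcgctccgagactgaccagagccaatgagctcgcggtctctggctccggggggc
Il13ra1: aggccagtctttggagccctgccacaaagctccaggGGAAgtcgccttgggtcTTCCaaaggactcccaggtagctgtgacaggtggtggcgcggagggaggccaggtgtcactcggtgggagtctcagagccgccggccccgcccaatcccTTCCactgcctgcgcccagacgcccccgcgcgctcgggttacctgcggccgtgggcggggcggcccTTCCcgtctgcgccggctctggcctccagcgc
Il2rg: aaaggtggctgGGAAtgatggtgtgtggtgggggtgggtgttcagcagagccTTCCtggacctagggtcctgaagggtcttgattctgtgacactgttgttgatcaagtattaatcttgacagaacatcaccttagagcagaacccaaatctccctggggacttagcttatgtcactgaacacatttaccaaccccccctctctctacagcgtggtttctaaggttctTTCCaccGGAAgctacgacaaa

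The windows of Il6st and Il13ra1 were rich in G and C (66% and 70.8%, against a median of 52.4% over all promoters) and held 26 and 21 CpG sites, while Il2rg had 49.2% and 3.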

How the data were processed

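UMI counts per gene and barcode were deposited by the authors as raw count matrices of all barcodes, without normalization, per the file headers. The headers and the submitters' processing notes name Cell Ranger 7.2.0, and the notes also Seurat 4.4.0 and mm10. Whether intron reads were counted is not given in the sources used here. Per the labels a v2 kit was used, although 1597090 and 1779952 barcodes were listed. A cell was kept if it had 1000 to 5000 genes and less than 20% of its UMIs from mitochondria (8394 control, 8321 B16-F10), and 564 and 554 doublets, scored with Scrublet in scanpy 1.11.5, were removed at a preset rate of 0.8% per 1000 cells. Of the barcodes with at least 300 genes, 36 occurred in both libraries. Cells were clustered with leidenalg 0.10.2 at resolution 0.8 on 30 principal components of 2929 variable genes, with the receptor and pathway genes left out, into 23 clusters. Classes were named from marker lists, with thresholds chosen once the clusters had been looked at. Clusters of ECs that also carried red cell, platelet, mural or epithelial markers were kept out of the ECs.

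UMIs were summed per class and library. CPM carry exact Poisson intervals, log2 ratios exact conditional binomial intervals without pseudocount, and shares of cells exact Clopper-Pearson intervals. PCR duplicates were collapsed by UMI. A gene was measured with at least 50 UMIs over both sums. With 1 library per group no p-value was computed. The calculation was tested on simulated counts. Gene positions come from GENCODE M21 (GRCm38) and count from 1, and promoter sequences from RefSeq. Named were all 8 receptors, the 3 genes of each pathway list with the largest absolute log2 ratio in gCap-like ECs, and the 3 genes most like each receptor, of which some are not reported here; exceptions are stated. The receptors and lists were chosen with earlier results of these data known.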

Additional observations from a re-analysis of the deposited data

Results flagged for a closer look

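Receptor RNA was also present in barcodes outside the limits on cells, and in most groups of these barcodes its sum was higher in the B16-F10 library. Summed over the 8 genes, barcodes with 1 to 100 UMIs held 785 CPM (762 to 808) in the control and 1031 CPM (997 to 1065) in the B16-F10 library. Barcodes with over 100 UMIs and under 300 genes held 617 CPM (591 to 643) and 859 CPM (839 to 879). Barcodes with over 5000 genes, 348 and 645 in number, held 901 CPM (881 to 922) and 1114 CPM (1098 to 1130). Those with at least 300 but under 1000 genes held 558 CPM in both libraries. These sums hide opposite directions of single genes. In barcodes with 1 to 100 UMIs, Il4ra was at 148 CPM in the control and 349 CPM in the B16-F10 library. Lifr was at 229 and 155 CPM there, and it was lower in the B16-F10 library in each group of these barcodes. No receptor gene was higher beyond counting error in one vessel class and lower in another.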

How the results depend on the processing

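With 1 library per group, each value can be compared only with its counting interval, and no library could be left out. No paired analysis was possible because the groups hold 1 library each and no result comes from a test. Of 491 ratios, differences and medians under alternative settings, 429 stayed within the interval of the reported value and 62 fell outside it. Of the 491, 25 had the opposite sign, 23 of them where the reported interval includes 0. The causes were not tested. The gCap-like ratios of Osmr, Il6st, Lifr, Il4ra, Il13ra1, Il2rg and Il10rb kept their sign under 16 of 16 alternatives, and Il6ra under 15 of 15. Without a maximum of genes, log2 ratios were 1.30 for Osmr, -0.51 for Lifr and 1.52 for Il4ra. Osmr was at 1.25 under 10% mitochondrial UMIs and at 0.93 with classes set by the markers of each cell. Summing all ECs gave 1.01 for Osmr and 1.34 for Il4ra, and thinning to 2000 UMIs per cell gave 1.06 for Osmr, 0.34 for Il6st and 1.52 for Il6ra. Centring on the median gene (-0.04) gave -0.41 for Lifr. Among settings added after the data were seen, leaving out cluster 7 gave 0.84 for Osmr, 0.30 for Il6st, -0.27 for Lifr, 0.99 for Il4ra, 0.38 for Il13ra1 and 0.45 for Il2rg, and the mean over clusters gave 0.85 for Osmr, 0.27 for Il6st and 1.09 for Il4ra. The number of members at least 1.5-fold higher, 4, was 2 without cluster 7 and 2 at 2-fold. It was 3 after thinning, with Il2rg at 0.55, and 5 with a minimum of 500 genes, with doublets kept, over all ECs and without cells holding a leukocyte marker UMI, where Il6ra (0.59 to 0.64) was added. With classes set cell by cell, the aCap-like ratio of Il13ra1 was -0.58, from 511 control and 134 B16-F10 cells. Without thinning, where depth differed between libraries, cells with Lifr and Il6st were 1.90 percentage points more frequent in the B16-F10 library. At equal depth the difference was -3.23 at 2000 UMIs and -1.90 at 4000 UMIs.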
